A study of Homo sapiens with 18 samples.

Results

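The report covers genes that cells switch on when oxygen is short, other than the enzymes of glycolysis, in 2 human colorectal cancer cell lines. The list held 36 genes known to be induced by hypoxia-inducible factors (HIF), listed by name from what is known of them, with earlier results of these arrays in view. Of these, 33 had at least 1 named probe on the array, 58 probes in all, out of 20046 gene symbols named on it. CA9, KCTD11 and PPFIA4 were without one and are left out. HT29 and Colo-205 cells were grown as 3D cultures in Matrigel and given 3 µM PLX4720, an inhibitor of mutant BRAF kinase, or its solvent DMSO, from day 5 of culture. RNA was taken at days 1, 3 and 8 in HT29 and at days 1, 3 and 10 in Colo-205, read here as days of treatment. Each of the 6 HT29 groups had 2 arrays, which the series describes as biological duplicates, and each of the 6 Colo-205 groups had 1 array. Medium was DMEM for HT29 and RPMI 1640 for Colo-205, each with 10% FCS. No culture was placed in low oxygen, so the labels hold no hypoxia group, and all groups share the Matrigel culture.

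HIF is a pair of proteins, an oxygen-controlled alpha subunit and the stable partner ARNT. When oxygen is present, prolyl hydroxylases (the EGLN enzymes) mark the alpha subunit, the VHL complex recognises the mark and the protein is destroyed. When oxygen is short, the alpha subunit stays, pairs with ARNT and binds a short core in DNA, A or G followed by CGTG, at its target genes. Targets serve acid and carbon dioxide balance, vessel growth, collagen modification, removal of mitochondria, control of glucose use and feedback on HIF itself.

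The stretch just before a gene's start is one place where the core can lie, and it is shown for members whose RNA moved far between groups. RefSeq promoter sequences (GRCh38.p14) matched 31 of the 36 members. NDRG1, BNIP3L, STC1 and ZNF395 were left out of the search, and VEGFA was not matched. The cores searched were ACGTG and GCGTG on the gene's strand and, for the other strand, CACGT and CACGC, in the 250 bases before each annotated start. CACGTG counts as a match on both strands. Capitals mark the matches, and each sequence runs 5′ to 3′ on the gene's strand.
COXFA4L2: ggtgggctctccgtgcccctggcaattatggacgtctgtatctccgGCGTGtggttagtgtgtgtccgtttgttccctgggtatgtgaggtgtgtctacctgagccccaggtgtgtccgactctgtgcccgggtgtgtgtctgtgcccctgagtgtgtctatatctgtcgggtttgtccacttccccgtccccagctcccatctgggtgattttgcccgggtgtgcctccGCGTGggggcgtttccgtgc
P4HA1: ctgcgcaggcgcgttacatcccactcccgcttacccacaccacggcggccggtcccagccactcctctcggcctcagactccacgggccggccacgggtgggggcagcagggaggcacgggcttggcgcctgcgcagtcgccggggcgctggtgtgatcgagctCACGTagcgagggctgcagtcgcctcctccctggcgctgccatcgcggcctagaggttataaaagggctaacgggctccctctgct
PLOD2: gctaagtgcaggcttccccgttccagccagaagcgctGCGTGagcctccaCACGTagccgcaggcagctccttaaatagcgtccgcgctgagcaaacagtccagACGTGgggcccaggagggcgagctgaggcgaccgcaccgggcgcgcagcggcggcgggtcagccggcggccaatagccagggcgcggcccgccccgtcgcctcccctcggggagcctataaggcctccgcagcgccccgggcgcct
EGLN3: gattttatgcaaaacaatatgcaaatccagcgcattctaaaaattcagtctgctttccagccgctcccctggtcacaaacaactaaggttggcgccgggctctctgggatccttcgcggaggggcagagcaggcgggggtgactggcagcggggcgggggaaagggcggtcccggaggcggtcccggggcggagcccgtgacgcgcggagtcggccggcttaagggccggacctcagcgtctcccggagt
ANKRD37, 30 bases: CACGTGccagtgtttgtgtACGTGcggccg
DDIT4, 30 bases: agaacgttgcttACGTGcgcccggagtcca

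The 4 long windows lie directly before the start, at chr12:57240763-57241012 (minus strand) for COXFA4L2, chr10:73096867-73097116 (minus) for P4HA1, chr3:146161185-146161434 (minus) for PLOD2 and chr14:33951075-33951324 (minus) for EGLN3. No other RefSeq gene overlaps them. The ANKRD37 stretch, at chr4:185396679-185396708 on the plus strand, lies within the span of the neighbouring gene LRP2BP. The DDIT4 stretch, at chr10:72273787-72273816 on the plus strand, lies within the span of the antisense gene DDIT4-AS1. EGLN3 held no match in its window, and no match says only that these letters are not in these 250 bases. At least 1 core was found for 27 of the 31 members searched (87.1%), against 12945 of 27305 genes in the RefSeq table (47.4%). Chromosome 8 was left out for the members but not for the count over all genes. NDRG1, BNIP3L, STC1 and ZNF395 lie on it, so whether they hold a core was not tested. The ACGTG form was found for 19 of 31 members (61.3%), against 21.7% of genes. Members' windows also held more G and C, a median of 68.0% against 58.0% over all windows, and the part of base composition in the difference was not tested. Among members that rose in HT29 under DMSO, 18 of the 20 searched held a core, and 9 of the 11 others searched did. Of those 11, only BNIP3, EGLN1 and RORA were tested in HT29, so they are not a set that failed to rise.

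**Figure D1:**
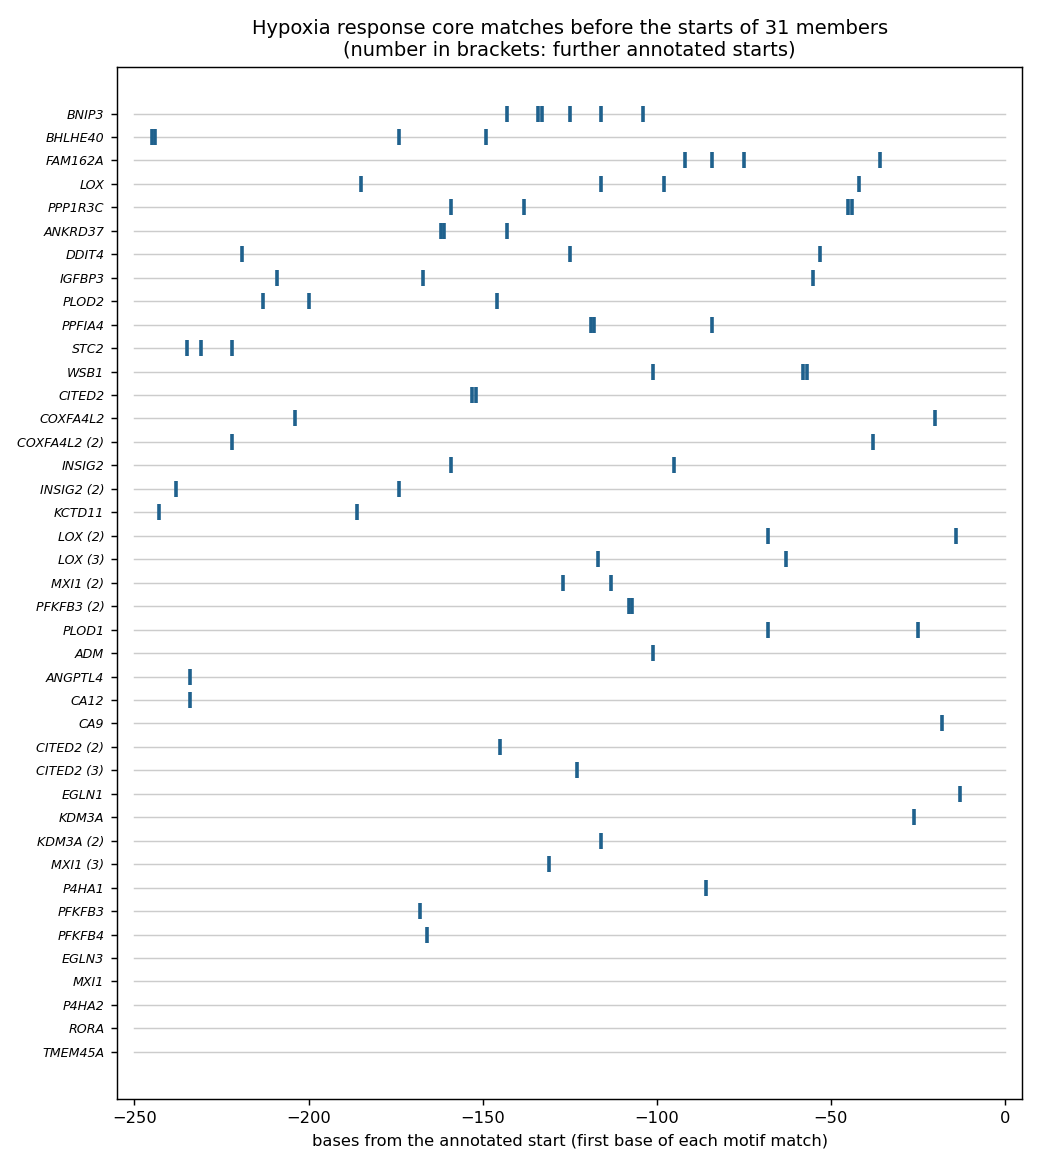
Positions of ACGTG or GCGTG, either strand, in the 250 bases before each annotated start of 31 members (grey lines are windows, blue ticks are first bases of matches, 0 is the base after the window). Ticks lie along the whole window, and EGLN3, P4HA2, RORA, TMEM45A and the first MXI1 window have none.

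Levels are log2 intensities after background correction with an added offset of 16 and quantile normalization of all 18 arrays. Undetected member probes thus read over 4, and some read over 5, such as EGLN3 at 5.20 on the first HT29 PLX4720 day 3 array. They compare one probe between arrays, and levels of different genes are not compared. A probe counted as detected on an array at a detection p under 0.01, which held for 38.3% to 41.4% of probes per array. Replicate HT29 arrays correlated at 0.986 to 0.991 across genes. The colon epithelial markers EPCAM, CDH1, KRT8, KRT18, KRT19 and VIL1 were detected on all 18 arrays. KRT20 was detected on 12 HT29 and 2 Colo-205 arrays, and CDX2 on 6 and 5. Of 6 fibroblast and smooth muscle markers, COL3A1 was detected on 0 arrays, ACTA2 on all 12 HT29 arrays and 1 Colo-205 array, and COL1A1, COL1A2, DCN and LUM on 1 to 3 HT29 and 1 to 4 Colo-205 arrays. Of 3 endothelial markers, VWF and CDH5 were detected on 0 arrays and PECAM1 on 1. Of 3 blood markers, PTPRC was detected on 0 arrays, HBB on 4 HT29 arrays and CD68, a macrophage marker, on all 18. The summed signal of the 6 fibroblast and smooth muscle markers was 235 to 236 at HT29 DMSO day 1, 304 to 373 at DMSO day 8 and 394 to 416 at PLX4720 day 8, and the endothelial sum was 55.4 to 75.9 on all arrays. The blood sum was 189 to 212 at HT29 DMSO day 1, 879 to 907 at DMSO day 8 and 771 to 837 at PLX4720 day 8, and 2770 to 5270 in Colo-205. The part of these signals in the results was not tested. Of the 33 measured members, 27 were detected on at least 2 HT29 arrays and tested there. LOX, STC1, STC2, PPP1R3C, TMEM45A and IGFBP3 were not. EGLN3 passed through 1 group alone, DMSO day 8, and COXFA4L2 through DMSO days 3 and 8, so a difference was built into their entry to the fit. In the deposited table, the column header of the first HT29 PLX4720 day 8 array carried the word mean, and nothing in the labels or files says whether it holds an average. All HT29 differences below come from a limma fit to 12675 genes, with n = 2 arrays a group, SE after ± and p-values adjusted over all those genes.

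Under DMSO the HIF-induced genes rose steeply in HT29 cultures between days 1 and 8. Of the 27 tested members, 24 were higher at day 8, against 22.0% of all genes tested, and 0 were lower (20.4% of all genes). The median difference over all 33 measured members, with no filter, was 1.73 on the log2 scale, against 0.00 over all named genes. From day 3 to day 8, 23 members rose (18.4% of all genes) and 0 fell (16.1%), and the median over the 33 was 1.36, against 0.42 from day 1 to day 3. At day 8, 22 members were lower with PLX4720 than with DMSO (8.62% of all genes were) and 0 were higher (7.34%). The median over the 33 was then -1.56, against 0.00. The rise under DMSO and the day 8 drug difference share the DMSO day 8 arrays, so a high value there moves both. Without EGLN3 the counts were 23 higher and 21 lower of 26. COXFA4L2, which entered through DMSO days 3 and 8, stays in all of these counts. Without the array labelled mean, 24 members were higher in the first and 21 lower in the second. In RNA from whole cultures, fewer cells that express a gene and less RNA per cell cannot be told apart.

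**Figure D2:**
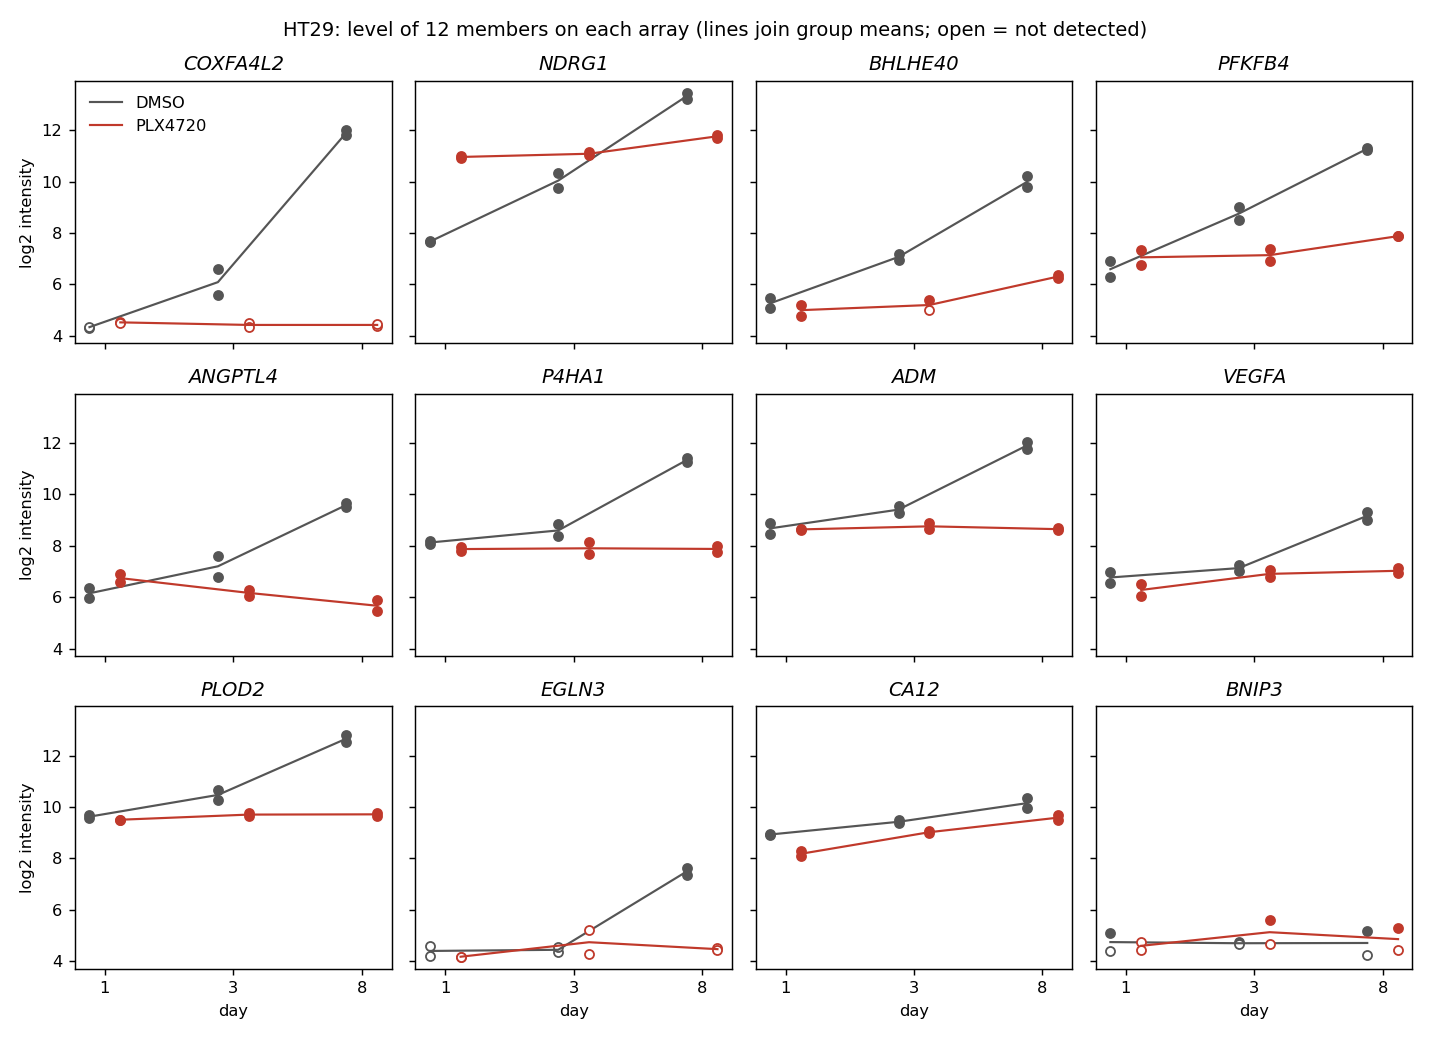
Log2 intensity of 12 members on each HT29 array by day (grey DMSO, red PLX4720, filled detected, open not detected, lines through the means of 2 arrays). Grey points climb by day 8 in 10 panels and red ones end below them, with NDRG1 starting high under PLX4720. CA12 climbs with both treatments and BNIP3 lies near the detection limit.

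COXFA4L2 (older name NDUFA4L2), a mitochondrial protein related to a subunit of the respiratory chain's terminal oxidase and known to restrain respiration in hypoxia, held 2 cores in the window printed above and showed the steepest rise of the members. In DMSO its 2 arrays read 4.32 and 4.36 at day 1, both undetected, 5.58 and 6.60 at day 3, and 11.99 and 11.82 at day 8. With PLX4720 all 6 arrays were undetected, between 4.35 and 4.54. Unprocessed intensities were 95.4 and 99.5 at DMSO day 1, 4120 and 3830 at DMSO day 8, and 102 and 103 at PLX4720 day 8. For folds, an undetected group was set at the dimmest signal detected on its arrays, or at its own signal if higher. On this setting DMSO day 8 was 163-fold above DMSO day 1 and 173-fold above PLX4720 day 8. These folds hold for the main processing and are not lower limits. Over the alternatives the log2 differences ran from 5.36, without background correction, to 7.65, and from -7.57 to -5.31. COXFA4L2 entered the fit through DMSO days 3 and 8, so its differences are given as a description.

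Other members act at mitochondria too. BNIP3L, a receptor for the removal of mitochondria, read 7.80 and 7.89 at DMSO day 1, 8.54 and 8.79 at day 3, and 10.77 and 10.51 at day 8. With PLX4720 it read 8.64 and 8.48, 8.69 and 8.50, and 8.83 and 8.76 at the same days. The DMSO rise was 2.79 ± 0.14 (adjusted p = 1.66e-06) and the drug difference at day 8 was -1.85 ± 0.14 (5.44e-05). FAM162A, a mitochondrial protein tied to cell death in hypoxia, read 8.88 and 8.72 at DMSO day 1, 8.75 and 8.76 at day 3, and 9.77 and 10.08 at day 8. With PLX4720 it fell, from 8.85 and 8.90 at day 1 through 8.45 and 8.38 to 8.05 and 8.05 at day 8 (-0.83 ± 0.13, adjusted p = 0.00298). The drug difference at day 8 was -1.87 ± 0.13 (2.66e-05). BNIP3, the close relative of BNIP3L, lay near the detection limit. Its 1 probe was detected on 5 of 12 HT29 arrays, at 4.26 to 5.60, with a day 8 drug difference of 0.15 ± 0.42 (adjusted p = 0.858).

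The secreted members ADM, VEGFA and ANGPTL4 rose under DMSO. ADM, the vasodilator adrenomedullin, read 8.89 and 8.46 at day 1, 9.28 and 9.53 at day 3, and 11.76 and 12.04 at day 8. With PLX4720 its 6 arrays stayed between 8.60 and 8.87, and the day 8 groups did not overlap (-3.26 ± 0.17, adjusted p = 7.04e-06). VEGFA, the main growth factor for vessels, read 6.97 and 6.56, 7.02 and 7.24, and 9.32 and 9.01 at DMSO days 1, 3 and 8. Treated cultures gave 6.52 and 6.04, 7.04 and 6.77, and 7.13 and 6.92. Its drug difference at day 8 was -2.14 ± 0.21 (adjusted p = 0.000214). ANGPTL4, a secreted inhibitor of lipoprotein lipase, read 6.35 and 5.95 at DMSO day 1, 6.80 and 7.60 at day 3, and 9.52 and 9.65 at day 8. It moved the other way with PLX4720, from 6.89 and 6.59 through 6.27 and 6.06 to 5.88 and 5.45, a difference from day 1 to day 8 of -1.08 ± 0.27 (adjusted p = 0.0246). At day 8 the drug difference was -3.92 ± 0.27 (2.56e-05), and with the mean of its probes it was -1.71.

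ANGPTL4 had 3 probes, and they disagreed. The rise of 3.44 ± 0.27 came from the probe with the highest mean signal, while the other probes differed by 0.24 ± 0.19 and 0.11 ± 0.42 between DMSO days 1 and 8, with probe-level adjusted p of 0.38 and 0.875. P4HA1 had a second, dim probe with a difference of 0.55 ± 0.32 that did not pass (0.223), detected on 2 HT29 arrays. VEGFA's second measured probe gave 1.50 ± 0.28 (0.00307) and a day 8 drug difference of -2.06 ± 0.28 (0.0018), in the direction of the first. Whether probes of a gene read different transcripts was not tested.

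Among the collagen-modifying enzymes, P4HA1 and P4HA2, catalytic subunits of the collagen prolyl hydroxylase, need oxygen for their reaction. P4HA1 read 8.06 and 8.19, 8.36 and 8.83, and 11.40 and 11.26 at DMSO days 1, 3 and 8, while its PLX4720 arrays lay between 7.66 and 8.14. P4HA2 read 8.38 and 8.46, 8.44 and 8.70, and 10.84 and 10.91 under DMSO, and between 8.56 and 8.76 with PLX4720. The day 8 drug differences were -3.45 ± 0.20 (adjusted p = 1.06e-05) and -2.21 ± 0.13 (1.03e-05). PLOD2, the lysyl hydroxylase of collagen's cross-linking ends, read 9.56 and 9.69, 10.27 and 10.67, and 12.79 and 12.53 under DMSO. With PLX4720 it lay between 9.50 and 9.78 on all 6 arrays, a day 8 difference of -2.95 ± 0.16 (7.04e-06).

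PLOD1, a lysyl hydroxylase of the collagen helix, showed smaller differences. It read 10.23 and 10.16, 10.11 and 10.10, and 10.65 and 10.64 under DMSO, a rise of 0.45 ± 0.13 (adjusted p = 0.0198). The rise missed the threshold when any 1 of the 4 arrays compared was left out (0.0518 to 0.081). With PLX4720 it lay between 9.60 and 9.93, and the day 8 drug difference was -0.93 ± 0.13 (0.00142). LOX, the lysyl oxidase that cross-links collagen, was detected on 0 of 18 arrays.

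EGLN3 and EGLN1 are prolyl hydroxylases that turn HIF off. EGLN3, whose window above held no core, was undetected on all HT29 arrays except at DMSO day 8, where it read 7.35 and 7.63. With undetected groups set as for COXFA4L2, it was 7.57-fold higher there than at DMSO day 1 and 7.97-fold higher than at PLX4720 day 8. These folds are given as a description and are not lower limits. Over the alternatives the log2 differences ran from 1.44 to 3.28 and from -3.08 to -1.37. EGLN1 read 6.38 and 6.23, 7.10 and 6.67, and 6.87 and 6.61 at DMSO days 1, 3 and 8, a difference from day 1 to day 8 of 0.44 ± 0.18 that did not pass (0.0824). PLX4720 arrays read 6.19 and 6.43, 5.83 and 5.67, and 5.40 and 5.66. Its day 8 drug difference of -1.21 ± 0.18 (0.00206) thus sat beside a change of -0.78 ± 0.18 over time with PLX4720 (0.0192).

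Regulators of glucose use rose under DMSO as well. PFKFB4 and PFKFB3 make and break the fructose bisphosphate that activates phosphofructokinase. PFKFB4 read 6.91 and 6.28, 8.50 and 9.01, and 11.31 and 11.25 at DMSO days 1, 3 and 8, a 25.7-fold rise (4.69 ± 0.28, adjusted p = 3.5e-06). The treated arrays read 7.34 and 6.77, 7.37 and 6.91, and 7.89 and 7.87, and the gene was 10.6-fold lower than DMSO at day 8 (6.69e-05). PFKFB3 read 9.19 and 8.70, 9.33 and 9.50, and 11.26 and 10.90 under DMSO. With PLX4720 it read 8.37 and 7.85, 8.60 and 8.33, and 8.43 and 8.41. Its drug differences at days 1, 3 and 8 were -0.83, -0.95 and -2.66, each ± 0.22 (adjusted p = 0.0263, 0.0202 and 7.99e-05). The day 1 call was lost without the first DMSO day 1 array (0.151) or the second PLX4720 day 1 array (0.157), and the day 3 call without any 1 of the 4 day 3 arrays (0.0521 to 0.124). Its second probe gave -0.47, -0.38 and -1.98, each ± 0.39, at those days, with probe-level adjusted p of 0.478, 0.613 and 0.0127. PPP1R3C, a scaffold for glycogen synthesis, was detected on 0 arrays.

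Stress and growth regulators followed. DDIT4, an inhibitor of the mTOR kinase complex, read 8.63 and 8.36, 9.43 and 9.93, and 11.59 and 11.94 under DMSO and lay between 8.80 and 9.05 with PLX4720. Its day 8 drug difference was -2.79 ± 0.19 (adjusted p = 2.55e-05). NDRG1, a stress-response and differentiation protein, read 7.68 and 7.65 at DMSO day 1, 9.75 and 10.33 at day 3, and 13.45 and 13.20 at day 8, a 50.5-fold rise (9.59e-08). With PLX4720 it was high from the start, at 11.01 and 10.91, 11.14 and 11.03, and 11.83 and 11.70. The treated arrays thus lay above the controls at days 1 and 3 and below them at day 8, with differences of 3.30, 1.04 and -1.56, each ± 0.18 (1.25e-05, 0.00569 and 0.000539).

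Among the transcription and chromatin regulators, BHLHE40 rose most. This repressor of the circadian clock read 5.46 and 5.07, 6.96 and 7.18, and 10.20 and 9.78 at DMSO days 1, 3 and 8, a 26.4-fold rise (adjusted p = 1.05e-06). On PLX4720 its arrays read 5.22 and 4.78, 5.41 and 4.99, and 6.25 and 6.36, and BHLHE40 was 12.8-fold below DMSO at day 8 (1.29e-05). KDM3A, a histone H3 lysine demethylase that uses oxygen, read 6.73 and 6.67, 7.62 and 7.62, and 9.47 and 9.61 under DMSO. With PLX4720 it read 7.45 and 7.18, 7.60 and 7.30, and 7.76 and 7.82 (day 8 difference -1.75 ± 0.14, 6.57e-05). ANKRD37, a small ankyrin repeat protein, read 5.92 and 5.50, 7.01 and 7.20, and 8.63 and 8.53 under DMSO. PLX4720 arrays read 4.88 and 5.20 at day 1, were undetected at day 3 and read 4.94 and 5.28 at day 8 (-3.47 ± 0.20, 1.03e-05).

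ZNF395, a zinc finger protein, read 8.07 and 8.40, 8.59 and 8.63, and 9.87 and 10.07 under DMSO and between 8.62 and 9.09 with PLX4720. Its day 8 drug difference was -0.95 ± 0.14 (adjusted p = 0.00216). INSIG2, which holds the sterol sensor in the endoplasmic reticulum, read 8.55 and 8.85, 8.81 and 8.90, and 10.09 and 9.89 under DMSO. With PLX4720 it lay between 8.68 and 9.14 (day 8 difference -0.87 ± 0.16, 0.00636).

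CITED2, WSB1 and CA12 rose with both treatments, as did BHLHE40, NDRG1 and VEGFA. The PLX4720 rises of CA12 and BHLHE40 kept their call in all 22 alternatives, and those of the others did not. CITED2, which competes with HIF for the coactivators p300 and CBP, read 6.45 and 6.22, 6.70 and 6.81, and 7.94 and 7.99 under DMSO. The treated arrays read 7.38 and 7.11, 7.43 and 7.24, and 7.78 and 7.91, and its day 8 drug difference was -0.12 ± 0.14 (adjusted p = 0.639). WSB1, part of a ubiquitin ligase, read 8.89 and 9.14, 9.47 and 9.34, and 10.44 and 10.57 under DMSO. On PLX4720 its arrays read 9.32 and 9.57, 9.63 and 9.56, and 10.08 and 10.25 (day 8 difference -0.34 ± 0.14, 0.142). CA12, a membrane carbonic anhydrase, read 8.90 and 8.96, 9.37 and 9.48, and 10.34 and 9.96 under DMSO. Treated cultures gave 8.28 and 8.08, 8.97 and 9.07, and 9.50 and 9.67. Its day 8 drug difference of -0.57 ± 0.15 (0.0321) missed the threshold without the first DMSO day 8 array (-0.38, 0.126) and without either PLX4720 day 8 array (0.17 and 0.0824).

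MXI1, a MYC antagonist, rose under DMSO from a mean of 5.56 to 6.49 (0.93 ± 0.28, adjusted p = 0.023). The rise did not pass without the first DMSO day 8 array (0.61, 0.145) or the second DMSO day 1 array (0.57, 0.152). Its PLX4720 arrays lay between 5.63 and 6.28, and the day 8 drug difference was -0.35 ± 0.28 (0.458). RORA, a nuclear receptor, had 8 probes, and the one used was detected on 2 of 12 HT29 arrays, at 4.20 to 5.28. Neither its DMSO change (-0.05 ± 0.36) nor its day 8 drug difference (-0.34 ± 0.36) passed.

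The first 3 days under DMSO showed the earliest movers. At day 3, 9 members were above day 1, against 2.00% of all genes, and 0 were below it (0.316%). They were NDRG1 (2.38 ± 0.18, adjusted p = 0.000145), PFKFB4 (2.16), BHLHE40 (1.80), COXFA4L2 (1.75), ANKRD37 (1.40), DDIT4 (1.19), KDM3A (0.92), PLOD2 (0.85) and BNIP3L (0.82). COXFA4L2 entered the fit through DMSO days 3 and 8. A second BNIP3L probe, detected on all 12 HT29 arrays, gave 0.04 ± 0.25 by day 3 (probe-level adjusted p = 0.979) and 2.59 ± 0.25 by day 8. ADM at 0.73 ± 0.17 (0.0748) and ANGPTL4 at 1.05 ± 0.27 (0.0943) did not pass, and EGLN3 was undetected at both days. P4HA2 (0.15 ± 0.13), FAM162A (-0.04 ± 0.13) and INSIG2 (0.16 ± 0.16) did not pass at day 3 and were called between days 3 and 8. The day 3 count was sensitive to single arrays. It was 5 and 3 without the first or the second DMSO day 1 array and 4 without the second DMSO day 3 array. It was 2 when only the 4 arrays compared were fitted.

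At day 1 with PLX4720, 5 members were higher than with DMSO (11.8% of all genes were) and 4 lower (10.8% of all genes), and the median over the 33 was 0.07. NDRG1 led at 3.30 ± 0.18, followed by CITED2 (0.91 ± 0.14, adjusted p = 0.00229), BNIP3L (0.71 ± 0.14, 0.00772), KDM3A (0.62 ± 0.14, 0.0131) and ZNF395 (0.46 ± 0.14, 0.048). BNIP3L's second probe gave 0.64 ± 0.25 and did not pass (probe-level adjusted p = 0.129). The lower ones were PFKFB3 (-0.83 ± 0.22), CA12 (-0.75 ± 0.15, 0.00726), ANKRD37 (-0.67 ± 0.20, 0.0418) and PLOD1 (-0.43 ± 0.13, 0.0432). The calls of ANKRD37, PLOD1 and ZNF395 lay at the threshold and were lost in 14, 12 and 12 of 22 alternatives. Without the first PLX4720 day 1 array the higher count was 3. The lower count was 1 without the first DMSO day 1 array or the second PLX4720 day 1 array, and 2 without either DMSO day 3 array.

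At day 3 with PLX4720, 11 members were lower (7.53% of all genes) and 2, NDRG1 (1.04 ± 0.18) and CITED2 (0.58 ± 0.14), were higher (8.95% of all genes). The lower ones included ANKRD37 (5.75-fold, adjusted p = 0.000102), BHLHE40 (-1.87 ± 0.22, 0.001), COXFA4L2 (2.96-fold), PFKFB4 (-1.61 ± 0.28, 0.00513) and EGLN1 (-1.14 ± 0.18, 0.00384). The folds set the undetected PLX4720 group as above and are not lower limits. Over the alternatives the log2 difference ran from -2.80 to -1.11 for ANKRD37 and from -2.18 to -0.61 for COXFA4L2. ANGPTL4, PFKFB3, DDIT4, PLOD2, P4HA1 and ADM had differences of -1.03 to -0.65. P4HA1 at -0.69 ± 0.20 (0.046) lost its call in 15 of 22 alternatives. The lower count was 7 without the first PLX4720 day 3 array and 5 without the second, and 5 without the second DMSO day 3 array. Without any 1 of the 4 day 3 arrays the higher count was 1.

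**Figure D3:**
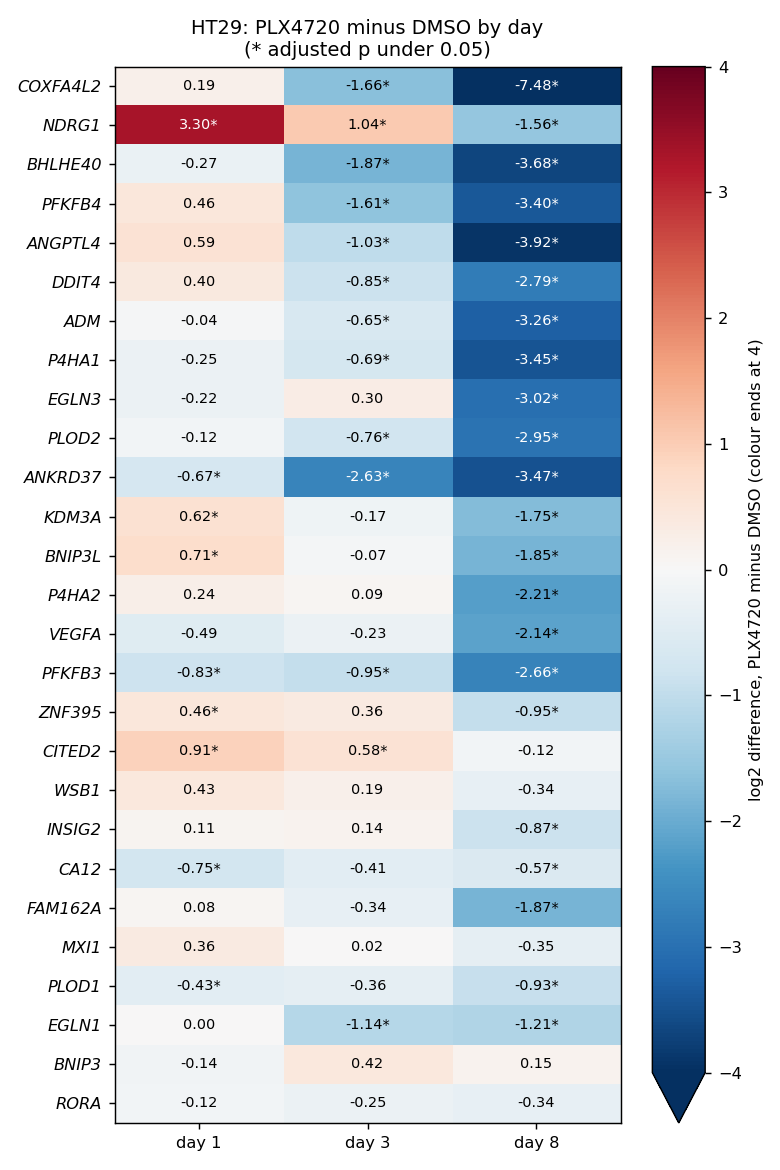
Log2 difference PLX4720 minus DMSO in HT29 for the 27 tested members (rows, ordered by their rise under DMSO) at days 1, 3 and 8, blue lower and red higher, asterisks marking adjusted p under 0.05. Blue spreads from day 1 to day 8, and NDRG1 goes from 3.30 to -1.56.

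The drug difference itself changed with time. At day 8 it was lower than at day 1 for 22 of 27 members by the interaction test, against 8.91% of all genes, and higher for 0 (7.05%), and without EGLN3 for 21 of 26. The median of this change over the 33 members was -1.66, against 0.00. COXFA4L2 (-7.67 ± 0.38, given as a description), NDRG1 (-4.86 ± 0.26, adjusted p = 2.6e-05) and ANGPTL4 (-4.51 ± 0.38, 0.000148) had the largest values. The counts include COXFA4L2, which entered the fit through DMSO arrays alone. CITED2 (-1.03 ± 0.20, 0.00969) and WSB1 (-0.77 ± 0.20, 0.031) passed here without a call at day 8. CA12 (0.18 ± 0.21, 0.612) and PLOD1 (-0.50 ± 0.18, 0.101), both lower with the drug at days 1 and 8, did not. BNIP3, MXI1 and RORA did not pass either. The interaction calls of EGLN1 (0.0527), INSIG2 (0.0597) and WSB1 (0.107) were lost without the array labelled mean, and 19 members were then called. INSIG2 was also lost without 1 of 3 other arrays (0.0577 to 0.062) and WSB1 without 1 of 4 others (0.0524 to 0.0927).

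For the change over time within PLX4720, the estimates do not use the DMSO group means. Their SE and p-values come from the fit to all 12 HT29 arrays, DMSO included. From day 1 to day 8 with PLX4720, 6 members rose (8.62% of all genes) and 3 fell (7.50% of all genes), and the median over the 33 was 0.15. CA12 (1.40 ± 0.15, adjusted p = 0.000392), BHLHE40 (1.30 ± 0.22, 0.00471), NDRG1 (0.80 ± 0.18, 0.0174), VEGFA (0.75 ± 0.21, 0.0434), WSB1 (0.72 ± 0.14, 0.00883) and CITED2 (0.60 ± 0.14, 0.0209) rose. ANGPTL4, FAM162A and EGLN1 fell, as above. Under DMSO the same change was 1.22 ± 0.15 for CA12 and 4.72 ± 0.22 for BHLHE40. ADM (0.01 ± 0.17), P4HA1 (0.00 ± 0.20), P4HA2 (0.00 ± 0.13), DDIT4 (0.08 ± 0.19) and ANKRD37 (0.07 ± 0.20) showed no change past the test. VEGFA lost its call in 10 of 22 alternatives, NDRG1 and CITED2 in 4 each and WSB1 in 2. Second probes gave 0.27 ± 0.18 for WSB1 and 0.42 ± 0.28 for VEGFA (probe-level adjusted p = 0.39 and 0.413). For CA12 the second probe gave 1.51 ± 0.17 (0.000909). The count of rises was 3 without the first PLX4720 day 8 array or the second PLX4720 day 1 array and 2 without the second PLX4720 day 8 array, and the count of falls was 1 without the second PLX4720 day 1 array.

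**Figure D4:**
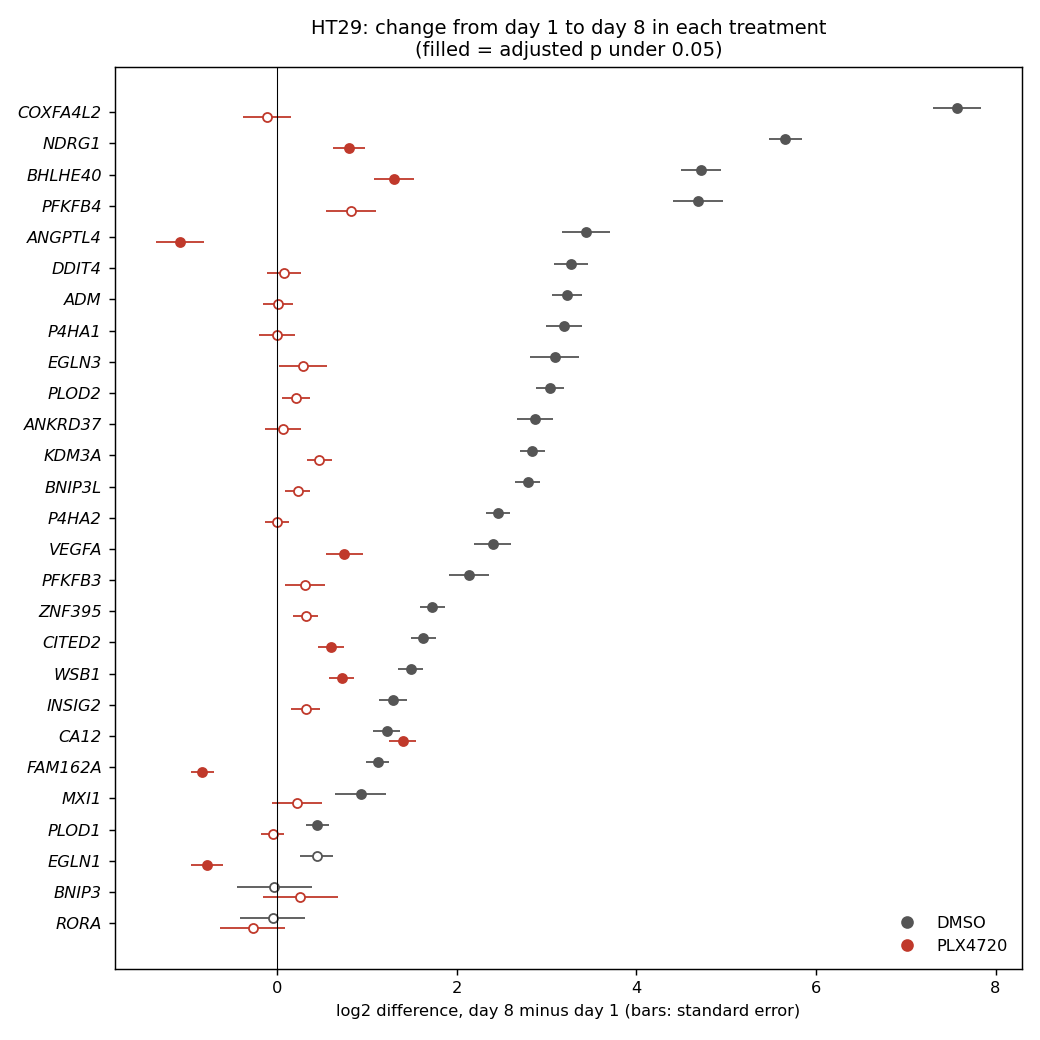
Log2 difference day 8 minus day 1 in HT29 for each tested member under DMSO (grey) and PLX4720 (red), with standard errors, filled where adjusted p is under 0.05. Grey points run up to 7.57 for COXFA4L2 while red points lie between -1.08 and 1.40, and the colours lie side by side for CA12.

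Set against DMSO day 1, the PLX4720 day 8 level showed where a member ended. The difference of group means was 0.08 for COXFA4L2, 0.07 for EGLN3, 0.09 for PLOD2, -0.04 for ADM and -0.25 for P4HA1. NDRG1 ended 4.10 above DMSO day 1, CITED2 1.51, PFKFB4 1.29, WSB1 1.14, KDM3A 1.09 and BHLHE40 1.04. EGLN1 (-0.78), FAM162A (-0.75), ANKRD37 (-0.60), PFKFB3 (-0.52) and ANGPTL4 (-0.49) ended below it. These differences mix time and treatment and were given no test.

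Colo-205 cultures were measured once per treatment and day, so a single difference there has no replicate check and is counted past 2-fold. Of 29 members detected on at least 2 of the 6 arrays, 21 were over 2-fold higher at DMSO day 10 than at day 1 (6.34% of all genes) and 1, CA12, was over 2-fold lower (5.17%). The median over all 33 was 1.81, against -0.01 over all named genes. COXFA4L2 read 4.52 at day 1, 5.04 at day 3 and 10.01 at day 10 under DMSO, and 4.90, 5.25 and 4.53 with PLX4720. With the undetected DMSO day 1 array set as in HT29, its DMSO rise was 44.2-fold. The day 10 control stood apart from the other 5 arrays. ANKRD37 read 5.48, 7.09 and 10.24 under DMSO and 4.69, 4.52 and 4.43 with PLX4720. On the same setting it was 52-fold higher with DMSO at day 10. NDRG1 read 7.75, 8.29 and 11.80 under DMSO and 8.47, 9.17 and 9.59 with PLX4720, so the treated arrays lay above the control at days 1 and 3 and below it at day 10. ADM read 9.99, 9.67 and 12.54 under DMSO and 10.80, 10.37 and 9.44 with PLX4720, the same order. The crossing in time was thus seen for both genes on single arrays. PFKFB4 read 4.63, 6.50 and 9.85 under DMSO and 4.78, 5.03 and 5.16 with PLX4720.

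At day 10, 21 of the 29 members were over 2-fold lower with PLX4720 (6.20% of all genes) and 1, CA12, was over 2-fold higher (5.07% of all genes). ANKRD37, EGLN3, MXI1 and TMEM45A, all among those 21, were detected in Colo-205 on DMSO arrays alone. A difference was thus built into their entry, and all but MXI1 also count in the DMSO rise to day 10. The median drug difference at day 10 over all 33 measured members, with no filter, was -1.51, against 0.01 over all named genes. CA12 read 9.12, 9.09 and 7.72 under DMSO and 8.02, 8.75 and 9.32 with PLX4720, and its second probe moved the same way, at 6.40, 6.49 and 5.25 against 5.04, 6.15 and 6.14. BHLHE40 was bright throughout, at 10.07, 10.82 and 12.43 under DMSO and 9.97, 10.20 and 10.58 with PLX4720, where HT29 read 5.46 and 5.07 at DMSO day 1. The remaining members named here were higher under DMSO at day 10. VEGFA read 5.99, 6.56 and 8.80 under DMSO and 5.55, 6.79 and 7.29 with PLX4720. EGLN3 read 4.94, 5.05 and 7.93 under DMSO and was undetected with PLX4720 at 4.37 to 4.57. P4HA1 read 7.01, 7.58 and 10.41 against 6.90, 7.01 and 7.55, and PLOD2 9.87, 10.20 and 11.66 against 9.96, 9.46 and 9.35. In Colo-205 a pair of members that did not pass in HT29 was measured. IGFBP3, which binds insulin-like growth factors, read 7.26, 7.81 and 10.31 under DMSO and 7.30, 8.45 and 9.52 with PLX4720. TMEM45A was detected at DMSO days 3 and 10 alone, at 5.64 and 5.92.

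**Figure D5:**
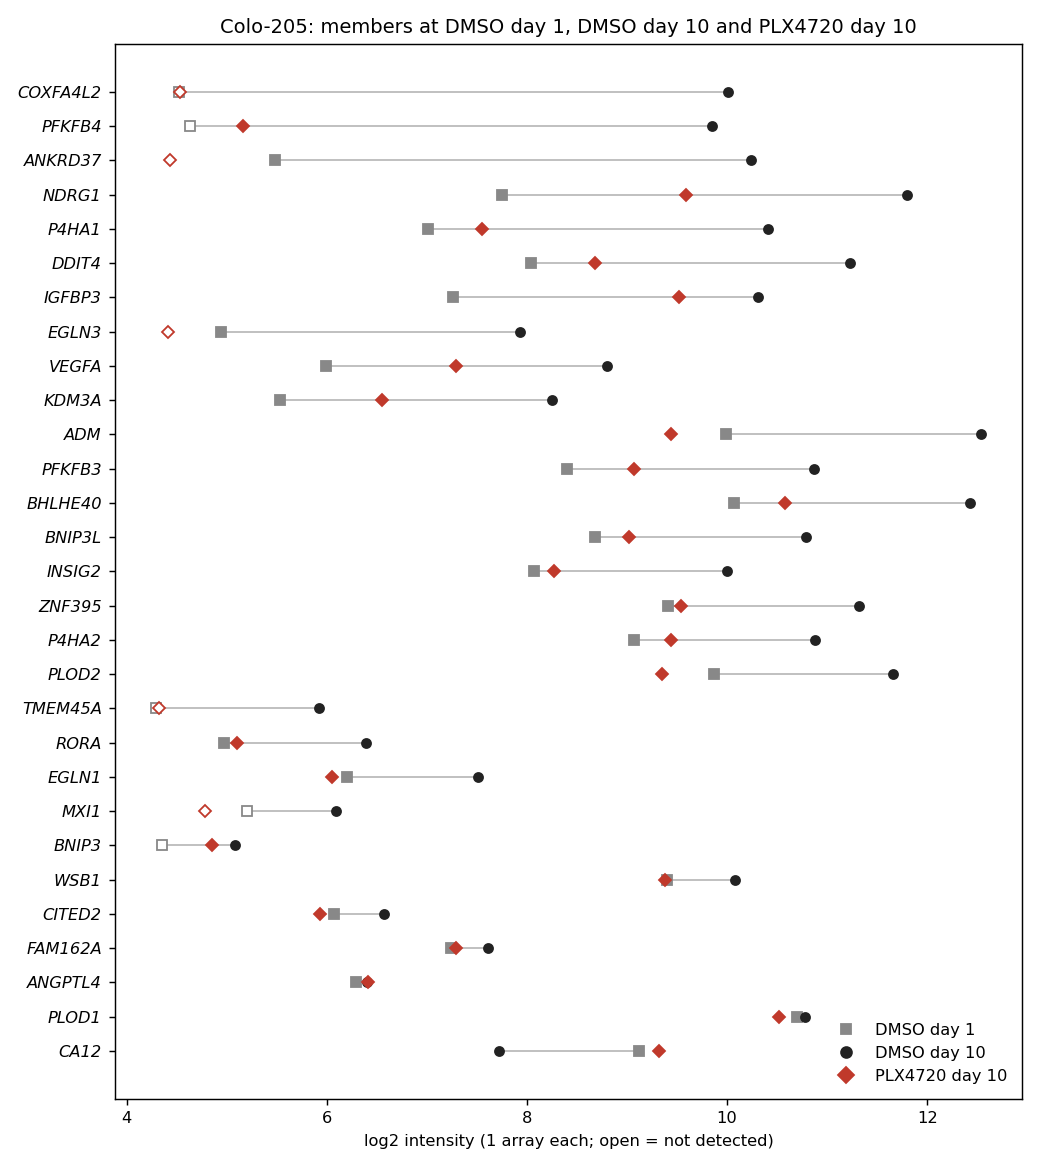
Log2 intensity of the 29 members detected in Colo-205 on 1 array each at DMSO day 1 (grey squares), DMSO day 10 (black circles) and PLX4720 day 10 (red diamonds), open where undetected. Red lies near the grey square and left of the black circle for most members, and CA12 has the reverse order.

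ANGPTL4 in Colo-205 was represented by a probe that was flat there, at 6.25 to 6.49 on all 6 arrays. The probe that moved in HT29 was detected on 3 Colo-205 arrays and read 5.24, 4.21 and 6.85 under DMSO and 5.25, 4.53 and 4.64 with PLX4720. With the days as replicates, the mean drug difference in Colo-205 passed for 0 of 29 members by limma, while 0.613% of all genes were higher and 0.752% lower. At an unadjusted p under 0.05, 6 members were lower and 0 higher. Mean differences were -3.06 ± 0.88 for ANKRD37 (adjusted p = 0.166), -2.00 ± 0.85 for PFKFB4 (0.301), -1.63 ± 1.14 for COXFA4L2 (0.515) and -0.20 ± 0.61 for NDRG1 (0.906). The large SEs go with differences that changed from day to day, as the values above show.

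The drug difference at days 1 and 3 was compared between the lines, which differ in medium and lay on separate BeadChips, so line and BeadChip cannot be told apart. Of 28 members tested, 0 differed by limma, while 2.61% of all genes were higher in HT29 and 1.52% lower, and at an unadjusted p under 0.05 2 were higher in HT29 and 2 lower. ADM came nearest, at -1.10 ± 0.27 (adjusted p = 0.0526), then PFKFB3 at -0.97 ± 0.27 (0.0901) and NDRG1 at 1.37 ± 0.67 (0.329). ADM passed without the second HT29 DMSO day 1 array (-1.25, 0.0169). Days 8 and 10 are not the same day and were not compared by a test.

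Genes that run the HIF pathway were a separate list. Of 14 such genes, 12 were tested in HT29. By limma, 0 of them differed between PLX4720 and DMSO at days 1, 3 or 8. Of all genes, 11.8%, 8.95% and 7.34% were higher and 10.8%, 7.53% and 8.62% lower at those days. At an unadjusted p under 0.05, 1, 1 and 1 of the HIF pathway genes were higher and 0, 1 and 1 lower. HIF1A, the oxygen-controlled subunit, read a mean of 7.80 at DMSO day 1, 7.30 at DMSO day 8 and 7.76 at PLX4720 day 8 (drug difference 0.46 ± 0.23, adjusted p = 0.214). EPAS1, the second such subunit, read 8.30, 8.04 and 7.66 (-0.38 ± 0.15, 0.117). Under DMSO from day 1 to day 8, 1 of the 12 rose (22.0% of all genes) and 2 fell (20.4% of all genes). ARNT rose (1.81-fold with its undetected group set as above, adjusted p = 0.00347). The VHL complex members ELOC (-0.61 ± 0.12, 0.00372) and CUL2 (-0.46 ± 0.14, 0.028) fell. These are RNA levels, and HIF protein was not measured here.

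Glycolytic HIF targets are not among the members. Of 16 tested, 11 rose under DMSO from day 1 to day 8 (22.0% of all genes). With PLX4720, 7, 11 and 15 were lower at days 1, 3 and 8 (10.8%, 7.53% and 8.62% of all genes). HK2, the first enzyme of glycolysis, had a drug difference of -2.23 ± 0.13 at day 1 (adjusted p = 1.73e-05) and -3.59 ± 0.13 at day 8. SLC2A1, the main glucose transporter, had drug differences of -1.37 ± 0.13 and -2.81 ± 0.13 at those days. ALDOC, an aldolase, rose by 4.76 ± 0.18 under DMSO and had a drug difference of -4.50 ± 0.18 at day 8. With PLX4720 from day 1 to day 8, 7 of the 16 fell (7.50% of all genes), HK2 and PFKP among them.

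ERK output genes, which report the kinase pathway below BRAF, were also counted. Of 7 tested, 6 were lower with PLX4720 at day 1 (10.8% of all genes) and 5 at day 8 (8.62%). DUSP6, a phosphatase of ERK, had drug differences of -2.53 ± 0.17 at day 1, -2.21 ± 0.17 at day 3 and -2.33 ± 0.17 at day 8. From day 1 to day 8 the drug difference shrank past the test for 3 of the 7, while its change was upward for 7.05% of all genes. The 3 were FOSL1 (1.87 ± 0.30, adjusted p = 0.00418, undetected with PLX4720 at day 1), SPRY4 (0.90 ± 0.22, 0.0234) and ETV5 (0.69 ± 0.15, 0.0163). The change did not pass for DUSP6 (0.20 ± 0.24, 0.618). Of 9 stress genes of the ATF4 pathway, 4 were lower (10.8% of all genes) and 1 higher (11.8%) with the drug at day 1. At day 8, 2 were lower (8.62% of all genes), TRIB3 (-1.48 ± 0.16) and DDIT3 (-0.84 ± 0.16, 0.00697). Under DMSO 3 of the 9 rose from day 1 to day 8 (22.0% of all genes) and 4 fell (20.4%).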

How the data were processed

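Gene expression was measured with 18 Illumina arrays, of which 12 came from HT29 and 6 from Colo-205. The deposited table, non-normalized by its name, gave an intensity and a detection p-value for each of 47323 probes on each array. How the authors summarised the beads into intensity values is stated in no label or file header. Their own processed table of intensity values, as deposited, served as an alternative. Detected probes numbered 18143 to 19606 per array, and the number of arrays limits the precision. Gene symbols came from the platform annotation, with 30113 probes naming 1 gene, 8 several and 17202 none.

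Background was corrected with limma 3.58.1 in R 4.3.3 (normexp with the detection p-values, offset 16), then the 18 arrays were quantile normalized and put on a log2 scale. A probe entered a fit if its detection p was under 0.01 on at least 2 arrays. The probe with the highest mean stood for a gene. Groups were compared with limma's moderated test (lmFit and eBayes) and Benjamini-Hochberg adjustment at 0.05 over all genes, and the scripts were tested on simulated data. One fit held the 12 HT29 arrays, one the 6 Colo-205 arrays with day as a term, and one the arrays of days 1 and 3 of both lines. Single Colo-205 arrays were compared at 2-fold. Alternatives covered background correction, offset, filter, probe choice, the authors' table, the arrays fitted and each array left out.

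Members and gene lists were chosen with earlier results of these data known. Values on every array are given for members past the threshold in the DMSO rise or the day 8 drug difference, in order of size up to 24, and for members whose drug difference went against the others. Other lists are given as counts with at most 6 genes each. In the HT29 fit, p-values weigh a difference against the spread between replicate arrays of a group. In the Colo-205 fit, with the days as replicates, they weigh the mean drug difference against its change from day to day. In the fit of both lines, such change between days enters along with the spread between HT29 replicates. The spread between Colo-205 cultures of the same treatment and day was not measured.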

Additional observations from a re-analysis of the deposited data

Results flagged for a closer look

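The drug difference in HT29 changed between days 1 and 8 for 22 members by the interaction test in limma. On the log2 scale the change was -7.67 for COXFA4L2, -4.86 for NDRG1, -4.51 for ANGPTL4, -3.86 for PFKFB4, -3.42 for BHLHE40 and -3.22 for ADM. It was -3.20 for P4HA1, -3.19 for DDIT4, -2.83 for PLOD2, -2.80 for ANKRD37, -2.80 for EGLN3 and -2.56 for BNIP3L. It was -2.45 for P4HA2, -2.37 for KDM3A, -1.95 for FAM162A, -1.83 for PFKFB3, -1.66 for VEGFA and -1.41 for ZNF395. It was -1.21 for EGLN1, -1.03 for CITED2, -0.98 for INSIG2 and -0.77 for WSB1. EGLN3 entered the fit through DMSO day 8 alone, and COXFA4L2 through DMSO days 3 and 8. The DMSO day 8 arrays enter each of these values.

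Of the members lower with PLX4720 in HT29 at day 8, 2 had a drug difference of the other sign in Colo-205 at day 10, on 1 array each, and the difference between the lines at these days was not tested. CA12 was higher by 1.60 in Colo-205 and ANGPTL4 by 0.01, the latter read by another probe than in HT29.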

How the results depend on the processing

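Of 3527 gene values recomputed under the alternatives, 42 had the other sign from the main value, 0 of them past the threshold under either setting. The DMSO rise to day 8 (24 members) ranged from 22 to 25, or 21 to 24 with 1 array left out. The day 8 drug fall (22) ranged from 21 to 23, or 20 to 22, and the interaction (22) from 21 to 23, or 19 to 22. Early counts moved more. Members higher at DMSO day 3 (9) numbered 2 when only the arrays compared were fitted, and 3 to 9 with 1 array left out. At day 1 with PLX4720, members higher (5) numbered 3 with only the arrays compared, and 3 to 5 with 1 array left out. Members lower there (4) numbered 2 with no filter, 2 at a detection p under 0.05 and 1 with only the arrays compared, and 1 to 3 with 1 array left out. At day 3, leaving out 1 array gave 1 to 2 members higher (2) and 5 to 10 lower (11). Within PLX4720, it gave 2 to 6 higher (6) and 1 to 3 lower (3). The line comparison (0 lower) gave ADM and PFKFB3, 2 members, with no background correction, with an offset of 50 and with the authors' table, 1 with normexp without detection p-values, and 0 to 1 with 1 array left out. The cause of these moves was not tested, except that fewer arrays leave fewer degrees of freedom. A replicate block gave 9 members at DMSO day 3, 24 at DMSO day 8, 22 at the day 8 drug difference and 22 in the interaction. It gave 5 higher and 3 lower at day 1, 2 and 10 at day 3, and 6 and 3 within PLX4720. Differences between the 2 arrays of a group, across genes, were correlated between groups. The correlations were -0.02 to 0.13 over 15 pairs of groups, 2 of them over 0.1. Nothing in the labels says that a number marks a shared culture, and these correlations cannot decide it. Without background correction the DMSO rise of COXFA4L2 was 5.36 in place of 7.57.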
